A study of Bos taurus with 6 samples.

Results

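Deoxynucleotide synthesis enzymes are the proteins that make, salvage or remove the dNTPs from which DNA is built. The 9 genes described here, TYMS, TK1, RRM1, RRM2, RRM2B, DUT, DCK, DTYMK and SAMHD1, were chosen by name, and each matched 1 of the 32183 genes listed in the expression tables of rumen epithelial primary cells (REPC). The cells came from a single Holstein bull calf, 2 weeks old and raised on milk replacer. RNA-seq was available for 3 cultures exposed to 5 mM butyrate over 24 h (BT) and for 3 control cultures (CO). The replicates are thus cultures of the cells of 1 animal, and the p-values refer to differences between cultures, not between animals. Butyrate, a short-chain fatty acid made in the rumen, inhibits histone deacetylases.

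Ribonucleotide reductase, which removes an oxygen from the ribose of ribonucleotides, is the entry to the de novo synthesis of all dNTPs. Its large subunit RRM1 pairs with a small subunit, which is RRM2 in dividing cells and RRM2B in resting cells and after DNA damage. TYMS makes dTMP from dUMP, TK1 makes dTMP by salvage of thymidine, and DTYMK phosphorylates dTMP from both routes. DUT destroys dUTP, which keeps uracil out of DNA and supplies dUMP to TYMS. DCK salvages deoxycytidine and purine deoxynucleosides, and SAMHD1 breaks dNTPs down. In most dividing cells RRM2, TYMS and TK1 belong to the genes that E2F factors switch on for S phase.

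Expression was given as FPKM, a fragment count divided by transcript length and by the mapped fragments of the library. Levels can thus be compared between genes as far as the transcript lengths used were right, which was not checked. The FPKM of a culture summed to 678035 to 681912 in CO and 619401 to 629037 in BT. Of the epithelial markers, KRT17 had a mean FPKM of 3859 in control and 3990 after butyrate. The fibroblast marker COL1A1 was also high, at 1149 and 1941. The 12 epithelial markers summed to 7093 to 7405 in CO and 10430 to 10850 in BT, with 8 higher and 1 lower. The 9 fibroblast markers summed to 1940 to 1998 in CO and 2806 to 3056 in BT, with 7 of the 8 tested higher. The 5 smooth muscle markers, led by TAGLN and ACTA2, summed to 6468 to 6796 in CO and 2849 to 3456 in BT, with 4 lower and 1 higher. The 4 endothelial markers summed to 1.95 to 2.07 in CO and 6.48 to 8.43 in BT, with CDH5 listed at 0 in all cultures. The part of these marker levels in the results below was not tested.

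After butyrate, 7 of the 9 deoxynucleotide genes fell and 2 rose. RRM2 fell furthest, to 3.58% of its control level, followed by TYMS, DTYMK, TK1, RRM1, DUT and DCK, while the alternative small subunit RRM2B and the dNTP hydrolase SAMHD1 rose. The test was limma on log2(FPKM + 0.1) over the 15813 genes whose mean FPKM reached 0.1, and a gene passed at a Benjamini-Hochberg (BH) adjusted p under 0.05. Of all genes tested, 25.9% passed with lower and 32.5% with higher values after butyrate, and the 2 rises among 9 members are a smaller share than the 32.5% of the background. With upper quartile scaling of the cultures, 3016 genes were lower and 6628 higher, against 4091 and 5144 here, and all 9 members kept their direction and call. By the study's own thresholds for a differentially expressed gene (DEG), a log2 fold change beyond 2 together with p under 0.05 after Bonferroni correction, RRM2, TYMS and DTYMK were downregulated, 3 of 9 against 1.51% of all genes. These thresholds were applied here to the limma p-values, while the study tested with Cufflinks, and its own DEG calls were not compared. In all 9 members the BT and CO values did not overlap, which was also true of 65.0% of all genes. The median log2 fold change of the members was -1.59, against 0.10 for all genes. In RNA from whole cultures, fewer cells that express a gene and less RNA per cell cannot be told apart.

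**Figure D1:**
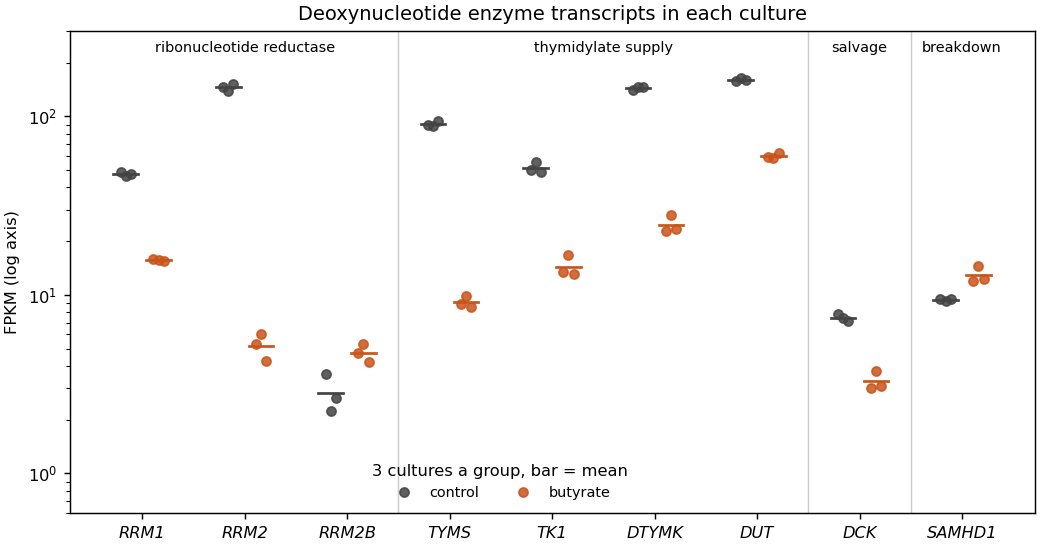
FPKM of the 9 deoxynucleotide genes on a log axis, with 1 point for each of 3 control and 3 butyrate cultures and a bar at the group mean, grouped by the role of the enzyme. In every gene the groups are separate, and the butyrate points lie below the control points except for RRM2B and SAMHD1; the RRM2 mean drops from 145.3 to 5.20.

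The subunits of ribonucleotide reductase changed by very different amounts. RRM2, on chromosome 11 from 87466580 to 87473868 of UMD3.1, encodes the small subunit that carries the enzyme's radical and is made and destroyed with each cell cycle. RRM2 was measured at 145.9, 138.9 and 151.2 FPKM in CO replicates 1 to 3 and at 5.29, 6.05 and 4.26 FPKM in BT replicates 1 to 3. Every CO culture was far above every BT culture, and in control RRM2 ranked 879th of the tested genes by mean level. The mean fell from 145.3 ± 6.16 to 5.20 ± 0.899 (SD, n = 3), a log2 fold change of -4.79 ± 0.12 (SE; limma, BH-adjusted p = 3.2e-08). By log2 fold change RRM2 was 24th from the lowest of the 15813 tested genes.

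RRM1, on chromosome 15 from 51801713 to 51843018, encodes the large subunit, which holds the catalytic site and the sites where nucleotides regulate the enzyme. It had an FPKM of 48.8, 46.5 and 47.4 in control and of 15.9, 15.7 and 15.5 after butyrate. The cultures of a group were nearly alike, and those of the other group were 3.03-fold away. The log2 fold change was -1.59 ± 0.059 (SE; limma, BH-adjusted p = 1.7e-07).

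RRM2B, on chromosome 14 from 64315031 to 64347243, encodes the small subunit that is induced by DNA damage and supplies dNTPs for repair and for mitochondrial DNA in resting cells. It was the lowest member in control, with an FPKM of 3.58, 2.24 and 2.63, and stood at 4.71, 5.28 and 4.23 after butyrate. Although the groups did not overlap, the gap between the highest control and the lowest butyrate culture was smaller than the range of the control cultures. The mean rose from 2.82 ± 0.691 to 4.74 ± 0.526 (SD, n = 3), a log2 fold change of 0.75 ± 0.19 (SE; limma, BH-adjusted p = 0.00925). The confidence intervals that Cufflinks gave for RRM2B overlapped in 4 of the 9 possible pairings of a CO with a BT culture. Its call was lost without butyrate replicate 2, where the log2 fold change was 0.67 (limma, BH-adjusted p = 0.0525).

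**Figure D2:**
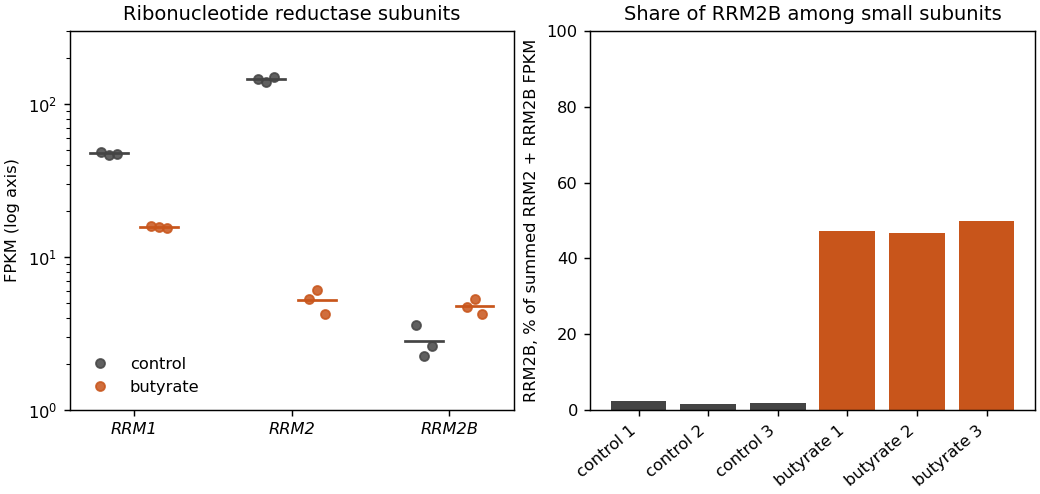
Left, FPKM of the ribonucleotide reductase subunits on a log axis, with a point per culture and a bar at the group mean. Right, RRM2B as a percentage of the summed RRM2 and RRM2B FPKM in each culture, which is between 1.59% and 2.40% in control and between 46.6% and 49.8% after butyrate.

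The ratio of RRM2 to RRM2B within a culture was 40.7, 62.0 and 57.4 in control and 1.12, 1.15 and 1.01 after butyrate. A large excess of RRM2 thus became near equality in all 3 treated cultures. On the log2 scale the mean ratio went from 5.66 ± 0.312 to 0.12 ± 0.098 (SD, n = 3; two-sided exact permutation p over cultures = 0.1, the smallest that 3 against 3 allows). The share of RRM2B in the summed small-subunit FPKM went from 1.90% ± 0.436 to 47.8% ± 1.73 (SD, n = 3). The sum itself was 149.5, 141.2 and 153.8 in control and 9.998, 11.3 and 8.49 after butyrate.

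RRM2 fell more than RRM1, and the balance of large to small subunit transcripts turned over. The ratio of RRM1 to both small subunits together was 0.326, 0.329 and 0.308 in control and 1.59, 1.39 and 1.83 after butyrate. By FPKM, small-subunit transcripts were therefore in excess in every control culture and RRM1 in every treated culture. The mean log2 ratio differed by 2.30 between groups (two-sided exact permutation p = 0.1, the smallest possible).

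In thymidylate supply, all 4 genes fell, and the enzyme of the de novo route fell more than that of the salvage route. TYMS, thymidylate synthase and the target of fluorouracil, lies on chromosome 24 from 35935161 to 35945796. Its FPKM was 90.0, 88.8 and 94.4 in control and 8.84, 9.87 and 8.60 after butyrate. The groups were far apart and the cultures within each were close together. The log2 fold change was -3.31 ± 0.072 (SE; limma, BH-adjusted p = 3.2e-08), and TYMS stood 139th from the lowest of the tested genes.

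TK1, cytosolic thymidine kinase, lies on chromosome 19 from 54596647 to 54610034. It was measured at 50.0, 55.7 and 49.0 FPKM in control and at 13.4, 16.7 and 13.1 after butyrate. The treated cultures kept 28.0% of the control level, with replicate 2 the highest in both groups. The log2 fold change was -1.84 ± 0.10 (SE; limma, BH-adjusted p = 1.45e-06).

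The ratio of TYMS to TK1 was 1.799, 1.595 and 1.928 in control and 0.658, 0.590 and 0.657 after butyrate. TYMS was the more abundant transcript in all control cultures and TK1 in all treated cultures. The mean log2 ratio went from 0.82 ± 0.138 to -0.65 ± 0.090 (SD, n = 3; two-sided exact permutation p = 0.1, the smallest possible).

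DTYMK, the kinase on which both routes converge, lies on chromosome 3 from 121173763 to 121182302. Its FPKM was 140.3, 145.4 and 146.6 in control and 22.7, 27.9 and 23.4 after butyrate. In control it could not be separated from RRM2, since their ranges overlapped. After butyrate it was well above RRM2, with a log2 fold change of -2.55 ± 0.080 (SE; limma, BH-adjusted p = 8.6e-08).

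DUT, the dUTPase, lies on chromosome 10 from 62284071 to 62295576 and encodes both a nuclear and a mitochondrial form, which the gene-level values do not separate. It was the most abundant member in both groups, with an FPKM of 158.8, 164.1 and 160.0 in control and of 59.3, 58.6 and 62.3 after butyrate. The cultures of each group lay within a few percent of each other. The log2 fold change was -1.42 ± 0.046 (SE; limma, BH-adjusted p = 9.4e-08). DUT thus retained 37.3% of its control level where TYMS, the next enzyme, retained 9.997%.

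DCK, deoxycytidine kinase, lies on chromosome 6 from 88049498 to 88077488 and activates drugs such as cytarabine and gemcitabine. Its FPKM was 7.79, 7.42 and 7.15 in control and 3.02, 3.76 and 3.07 after butyrate, the lowest of the members after treatment. It showed the smallest of the 7 falls, with a log2 fold change of -1.17 ± 0.13 (SE; limma, BH-adjusted p = 8.2e-05).

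**Figure D3:**
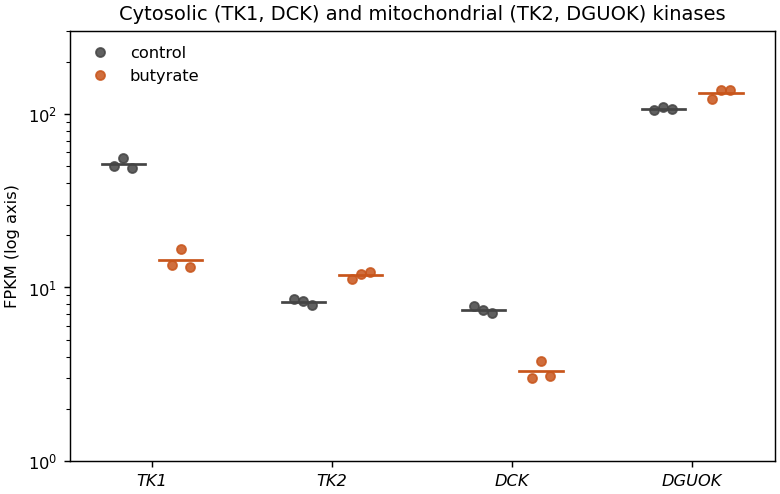
FPKM of the cytosolic kinases TK1 and DCK and of the mitochondrial kinases TK2 and DGUOK on a log axis, with a point per culture and a bar at the group mean. TK1 and DCK lie lower after butyrate, at means of 14.4 and 3.28, and TK2 and DGUOK higher, at means of 11.8 and 132.2.

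TK2 and DGUOK, which do the work of TK1 and DCK inside mitochondria, are not members and were singled out after their values were seen. TK2 was at 8.53, 8.41 and 7.92 FPKM in control and at 11.2, 11.9 and 12.3 after butyrate, a log2 fold change of 0.51 (limma, BH-adjusted p = 0.00116). DGUOK went from 107.4 ± 2.55 to 132.2 ± 9.05 (SD, n = 3), a log2 fold change of 0.30 (limma, BH-adjusted p = 0.0022). TK2 and DGUOK thus rose where TK1 and DCK fell. Both rises lay between the quartiles of all genes tested, -0.41 and 0.77, and 32.5% of all genes tested were higher. The ratio of TK1 to TK2 was between 5.87 and 6.62 in control and between 1.07 and 1.40 after butyrate (two-sided exact permutation p = 0.1, the smallest possible).

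SAMHD1, the dNTP triphosphohydrolase known for limiting retroviruses in myeloid and resting cells, lies on chromosome 13 from 66432396 to 66534338. Its FPKM was 9.48, 9.26 and 9.47 in control and 12.001, 14.599 and 12.326 after butyrate. The control cultures were almost identical, and replicate 2 stood above the other treated cultures. The mean rose from 9.40 ± 0.125 to 13.0 ± 1.42 (SD, n = 3), a log2 fold change of 0.46 ± 0.099 (SE; limma, BH-adjusted p = 0.00404). The Cufflinks intervals overlapped in 6 of the 9 possible pairings. Of the 8 immune markers, PTPRC, the pan-leukocyte marker, was listed at 0 in all 6 cultures, and 1 of the 3 tested, CD68, was higher. Together they summed to 5.28 to 7.15 in CO and 7.43 to 10.2 in BT.

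The ratio of RRM2 to SAMHD1, of a dNTP-making to a dNTP-degrading enzyme, was 15.40, 15.01 and 15.97 in control and 0.441, 0.415 and 0.346 after butyrate. SAMHD1 went from the less to the more abundant transcript in all 3 treated cultures (two-sided exact permutation p = 0.1, the smallest possible). These are transcript levels, and neither enzyme activity nor dNTP pools were measured.

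**Figure D4:**
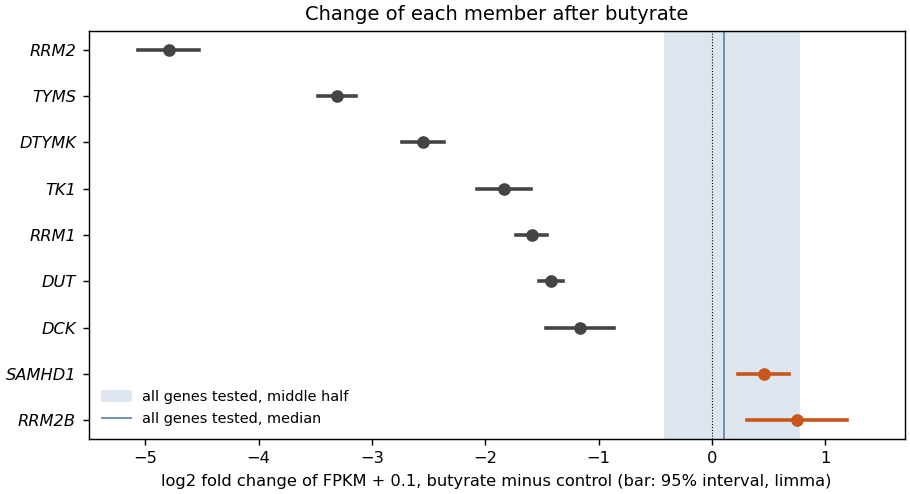
Log2 fold change of each member, butyrate minus control, with its 95% confidence interval from limma, beside the median and interquartile range of all 15813 tested genes. RRM2 at -4.79, TYMS at -3.31 and DTYMK at -2.55 are separate from each other and from the rest, while SAMHD1 and RRM2B lie inside the interquartile range, which runs from -0.41 to 0.77.

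Ordered by fold change, the 95% intervals of RRM2, TYMS and DTYMK overlapped with that of no other member. Those of TK1, RRM1, DUT and DCK overlapped from one to the next, as did those of SAMHD1 and RRM2B, so the order of these neighbours is not fixed by the data. The interval of TK1 did not overlap with those of DUT and DCK. By level in control, the order was DUT, RRM2, DTYMK, TYMS, TK1, RRM1, SAMHD1, DCK and RRM2B, in which the ranges of RRM2 and DTYMK overlapped and those of the other neighbours did not. After butyrate it was DUT, DTYMK, RRM1, TK1, SAMHD1, TYMS, RRM2, RRM2B and DCK, and the ranges of RRM1 and TK1, of TK1 and SAMHD1 and of RRM2 and RRM2B overlapped. RRM2 moved from the second to the seventh place. The members spanned a 57.1-fold range of mean FPKM in control and an 18.3-fold range after butyrate.

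Several members share their position with other listed genes, and reads from overlapping genes may be divided between them, since the sources used here do not say that strand was used in counting. ENOSF1, which in human is antisense to TYMS and here overlaps it, moved the other way, from 1.48, 1.65 and 3.87 FPKM to 6.98, 6.05 and 5.88 (log2 fold change 1.52; limma, BH-adjusted p = 0.00329), and how far reads of the pair were exchanged was not tested. The SAMHD1 entry overlaps NDRG3 and LOC101905432, which had log2 fold changes of 0.60 and 0.53 (limma, BH-adjusted p = 0.00109 and 0.00351), both near that of SAMHD1, so the SAMHD1 value is uncertain. It also overlaps TLDC2, whose mean FPKM was 0.242 and 0.306. RRM1 overlaps LOC101904526, whose mean FPKM was below 0.1 in both groups. Of the neighbours that did not overlap a member, STIM1 beside RRM1 and SYNGR2 beside TK1 moved against their member, with log2 fold changes of 0.53 and 0.60 (limma, BH-adjusted p = 3.4e-05 and 6.4e-05). LOC104974107 beside RRM2B and ING5 beside DTYMK moved with theirs, with log2 fold changes of 2.505 and -1.79 (limma, BH-adjusted p = 0.0331 and 0.0111). LOC104974107 was at 0.574, 1.55 and 0 FPKM in control, so its fold change leans on the 0.1 added before the log. For ING5, control replicate 3, at 2.09 FPKM, was close to butyrate replicate 1, at 1.99.

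The other genes of nucleotide metabolism were described by lists, each by its counts and its median. To be read beside these are the values of all genes tested, 25.9% lower, 32.5% higher and a median of 0.10. Enzymes of purine and pyrimidine nucleotide synthesis, a list that also holds the purine salvage enzymes APRT and HPRT1, fell with few exceptions, with 18 of 20 tested genes lower, both salvage enzymes among them, 1 higher and a median log2 fold change of -0.95. PFAS, a step of purine ring assembly, went from 10.6 ± 1.30 to 1.40 ± 0.088 FPKM (SD, n = 3; log2 fold change -2.83; limma, BH-adjusted p = 8.1e-07). IMPDH2, which commits IMP to guanine nucleotides, and CTPS2, a CTP synthase, followed at -1.99 and -1.38. The exception was ADSSL1, the muscle-type adenylosuccinate synthase, which rose from 2.02 ± 0.601 to 19.6 ± 1.82 (SD, n = 3; log2 fold change 3.25; limma, BH-adjusted p = 2.7e-06).

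Among folate and one-carbon genes, which supply the methyl group that TYMS transfers, 8 of 15 tested genes were lower and 4 higher, with a median of -0.69. MTHFD1, the cytosolic enzyme that interconverts one-carbon folates, fell from 43.2 ± 0.395 to 9.15 ± 0.728 FPKM (SD, n = 3; log2 fold change -2.23; limma, BH-adjusted p = 1.3e-07), and MTHFD1L and MTHFS had log2 fold changes of -1.22 and -1.08. ALDH1L2, the mitochondrial enzyme that burns one-carbon units, rose by 1.94 on the log2 scale, SLC46A1, a folate transporter, by 1.23, and GGH, which trims folate polyglutamates, by 1.03. SLC46A1 was low, at means of 1.20 and 2.86 FPKM. SLC19A1, another folate transporter and named after its values were seen, fell from a mean of 23.8 to 13.7 FPKM (limma, BH-adjusted p = 8.9e-05).

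The kinases of nucleosides and nucleotides were divided, with 8 of 22 (36.4%) lower, 8 higher and a median of -0.09. All genes tested were divided as well, with 25.9% lower and 32.5% higher. UCK2 and NME1 fell, with log2 fold changes of -1.43 and -1.12, while NME3, AK1 and CMPK2 rose by 0.91, 0.91 and 0.64. CMPK2 did not pass with quantile normalization (limma, BH-adjusted p = 0.167). Genes of nucleotide breakdown and pool sanitation were divided too, with 6 of 17 (35.3%) lower and 7 higher and a median of 0.03. NUDT1, which removes oxidised purine dNTPs, and DCTPP1, which removes modified dCTP, fell by 2.82 and 1.81, and ITPA had a log2 fold change of -0.48. NT5E, an ectonucleotidase, ADA, adenosine deaminase, and DPYD, which starts pyrimidine breakdown, rose by 1.63, 1.63 and 1.11 on the log2 scale.

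Of 11 thioredoxin, glutaredoxin and glutathione genes, listed for the electron supply of ribonucleotide reductase, 6 were lower and 4 higher, with a median of -0.17. The list also holds mitochondrial forms and the glutathione synthesis genes GCLC and GCLM. TXNRD1 and GLRX, cytosolic thioredoxin reductase and glutaredoxin, rose by 0.87 and 0.78 and GCLC by 0.61. GCLM, TXNRD2 and GSR had log2 fold changes of -0.90, -0.69 and -0.62. TXN, cytosolic thioredoxin, fell from a mean of 709.2 to 470.1 FPKM, a log2 fold change of -0.59, and GLRX3 had one of -0.17. Both were named after their values were seen (limma, BH-adjusted p = 1.8e-05 and 0.0139). Of 10 mitochondrial genes of dNTP use and supply, 5 were lower and 1 higher, with a median of -0.30. MGME1, a nuclease that processes mitochondrial DNA ends, fell furthest, with a log2 fold change of -2.17, POLG and POLRMT followed at -0.66 and -0.56, and MPV17 rose by 0.28. With upper quartile scaling, 2 were lower and 2 higher, and POLRMT did not pass (limma, BH-adjusted p = 0.106).

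Of 31 tested regulators of the members or their proteins, 20 were lower and 3 higher, with a median of -0.90. CDC20, CCNA2 and MYBL2, all active in S phase or mitosis, fell furthest, with log2 fold changes of -5.88, -5.77 and -5.24. CCNE1, TFDP2 and NFYA rose by 0.43, 0.46 and 0.31. NFYA did not pass with quantile normalization (limma, BH-adjusted p = 0.0605). At most 1 regulator was higher when CO replicate 2, CO replicate 3, BT replicate 1 or BT replicate 2 was left out. Without the filter on mean FPKM 0 were higher, and without the mean-variance trend of limma 1 was. With upper quartile scaling, and with FPKM rescaled to the same sum, 5 were higher. Named after their values were seen, E2F1, an activator of S-phase genes, fell from 3.76 ± 0.860 to 0.346 ± 0.186 FPKM (SD, n = 3), and CCNF, which marks RRM2 protein for destruction, from 9.61 ± 1.12 to 0.414 ± 0.162 (SD, n = 3; limma, BH-adjusted p = 5.1e-05 and 2.2e-06). The repressors E2F8 and E2F7, also named afterwards, fell from means of 3.31 to 0.128 and of 0.841 to 0.252 FPKM (limma, BH-adjusted p = 3.7e-06 and 0.00344). TFDP1, RB1 and RBL2 did not pass (limma, BH-adjusted p = 0.605, 0.519 and 0.161). The part of any regulator in the changes of the members was not tested.

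For comparison, 35 of 36 genes of the DNA replication machinery, which consumes the dNTPs, were lower and the other one did not pass, with a median of -2.20. By the study's thresholds, applied to the limma p-values, 18 of the 36 were downregulated, against 1.51% of all genes. ORC1, MCM5 and MCM3 had log2 fold changes of -4.09, -4.04 and -3.98, smaller falls than that of RRM2.

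**Figure D5:**
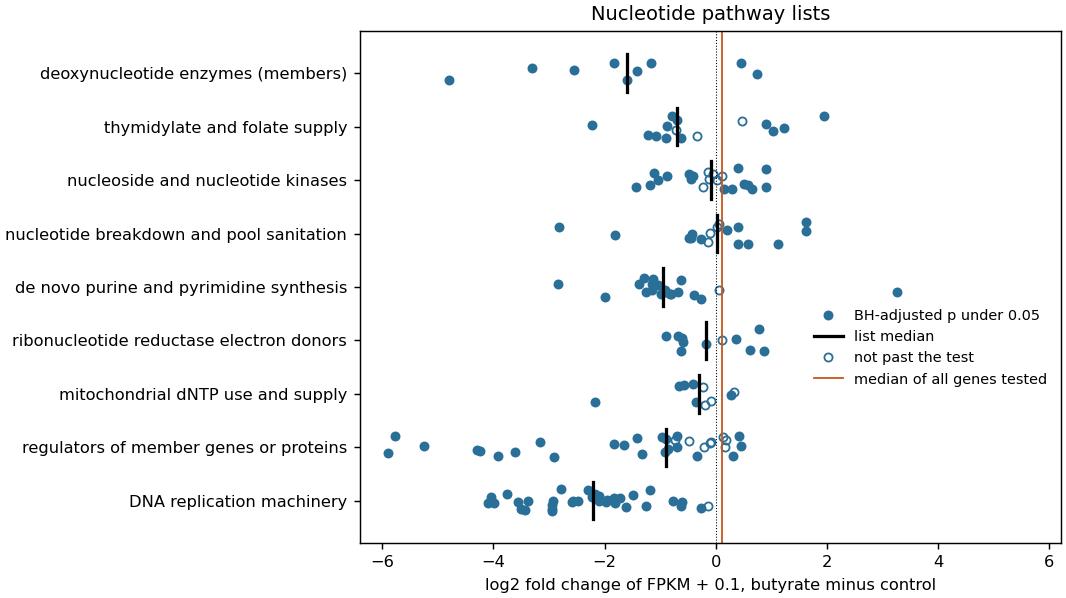
Log2 fold change of each tested gene, butyrate minus control, in the 9 deoxynucleotide genes and in 8 lists of related genes. Filled points passed the test, black bars are list medians and the orange line is the median of all tested genes, 0.10; the de novo nucleotide list, which also holds APRT and HPRT1, and the replication list lie almost wholly to the left, the kinase and breakdown lists on both sides.

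Among 11025 named genes whose mean FPKM reached 1, those whose log2(FPKM + 0.1) followed RRM2 most closely over the 6 cultures were HNRNPA1, PSMB2 and DBF4, with Pearson's r of 0.9998, 0.9997 and 0.9997. The corresponding genes were FLT1, CXHXorf23 and EXOC5 for RRM2B, with r of 0.995, 0.993 and 0.992 (the call of FLT1 was lost with quantile normalization), and STAU1, CETN4 and CHIC2 for SAMHD1, with r of 0.998, 0.997 and 0.997. All 6 points share the 2 groups, so r mostly reflects the difference between them and says little of size: HNRNPA1 had a log2 fold change of -1.02, against -4.79 for RRM2.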

How the data were processed

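RNA from 6 REPC cultures was sequenced as paired ends from TruSeq libraries. The authors trimmed the reads with Trim Galore 0.4.1, aligned them with STAR, kept uniquely mapped reads and ran Cufflinks, whose gene FPKM they deposited, with a confidence interval for each culture. The build named in the submitters' processing notes is UMD3.1. Versions of STAR and Cufflinks were not given in the sources used here. The study took its annotation from Ensembl, while the tables carry RefSeq sequence names, so the annotation behind the FPKM was not settled here. The tables hold no counts, so the reads behind each value are not known from them, and the deposited intervals of the members extended 4.46% to 29.2% above the FPKM.

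Rows were joined by name and position. Starts were shifted to count from 1, and sequences were named by the order of their accessions. A failed estimate removed 2 rows. The tests across genes were run with limma 3.58.1 (R 4.3.3), its mean-variance trend on and no replicate block, checked on simulated data, and exact permutation tests used scipy 1.17.1. Members and lists were chosen with earlier results of these data known. Named genes were the members, up to 3 genes past the test per list and direction, and 3 genes most like RRM2, RRM2B and SAMHD1; others are said to be named after their values were seen. Alternatives were 2 pseudocounts, 2 filters, no trend, 3 scalings, the replicate block, summed rows of a name and each culture left out. Promoter and protein sequences were not analysed here. Some genes that the rule names are not reported here.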

Additional observations from a re-analysis of the deposited data

How the results depend on the processing

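The direction of all 9 members, and the calls of all but RRM2B, held under each alternative run. RRM2B, at 0.75, no longer passed without a filter on mean FPKM, at the same 0.75 (limma, BH-adjusted p = 0.0615, over 32181 genes), which left 1 member higher in place of 2, and without butyrate replicate 2. With a replicate left out its log2 fold change ranged from 0.60 to 0.93, and 1 to 2 members were higher. The cause was not tested. DTYMK missed the study's thresholds without the filter, which left 2 of 3 members. Genes downregulated by these thresholds, among all genes, went from 238 to 50 without the filter and 141 without the trend. With a replicate left out, where fewer cultures enter the fit, they numbered between 122 and 159. Scaling moved the median log2 fold change of all genes from 0.10 to 0.24 with FPKM rescaled to the same sum in each culture, to -0.05 with quantile normalization and to 0.30 with the upper quartile. SAMHD1 stayed between 0.42 and 0.66 and RRM2B between 0.57 and 0.95 over the settings that kept all cultures. Same-numbered cultures did not deviate together (r across genes of 0.0228, -0.00431 and 0.00177), so the numbers were not taken as pairs. With the replicate block, 4015 genes were lower and 4956 higher, and no member's call changed. The 4 ratios kept their direction under both pseudocounts, with summed rows, with the block and with each culture left out, and were not recomputed under the filters, the trend or the scalings. Of the counts for lists under the alternatives, 245 kept within 1.5 times and 11 did not, all among regulators or mitochondrial genes.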

Other observations

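Butyrate replicate 2 had the highest FPKM of its group in 7 of the 9 members, RRM1 and DUT being the exceptions. Over all tested genes, it was the highest butyrate culture in 39.2%, against 29.8% and 31.0% for replicates 1 and 3. In the control group, replicates 1 to 3 were highest in 4, 2 and 3 of the members.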
